A study of Mus musculus with 6 samples.

Results

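The 37 genes described here are the transcription factor ATF4 with genes it is known to switch on in stressed or amino acid-starved cells, and the aminoacyl-tRNA synthetases, the enzymes that charge transfer RNAs with amino acids. They were taken by gene symbol from the table of counts, in which all 37 were present among 49568 genes; 19 are stress and amino acid genes and 18 are cytosolic synthetases. RNA was measured in 6 libraries of MC/9, a mouse mast cell line: 3 libraries labelled as treated with rPTH and 3 labelled as untreated control. A layer of 7F2 mouse osteoblasts was plated, MC/9 cells were added a day later, and rPTH was given to this co-culture (10 nM, 24 h) before the mast cells were taken off. The name rPTH is left unexplained in the labels and is taken to mean a preparation of parathyroid hormone. Whether the control MC/9 cells also sat on 7F2 cells is not stated. Separate cultures are not named for the replicates, so a p-value here covers the spread among these 6 libraries alone, which may be technical.

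ATF4 is made when kinases that sense unfolded protein, amino acid shortage, viral RNA or lack of haem phosphorylate the translation factor eIF2alpha, which slows protein synthesis in general but favours translation of the Atf4 message. The protein pairs with C/EBP factors on composite promoter elements and raises genes for amino acid import, amino acid synthesis and tRNA charging, together with feedback genes such as Trib3 and Ppp1r15a that close the response. Because ATF4 is controlled largely through translation, its mRNA level is not a direct reading of its activity. Mast cells are granule-storing immune cells that make large amounts of secretory protein.

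The composite element is shown first because it is the known binding element of ATF4 with C/EBP partners. RefSeq promoter windows (GRCm38.p6, 250 bases before to 50 after the annotated start) were matched for 27 of the 37 genes and searched on both strands for TGATGNAA, the core of the C/EBP-ATF element. It was found in windows of 10 of these 27 genes: Trib3, Chac1, Vldlr, Slc7a11, Asns, Aars, Gars, Iars, Tars and Yars. Over all 32851 windows it was found in 3.97%, a share of windows rather than of genes. Among the 27 genes, Atf5, Vldlr and Psat1 had 2 windows each. Slc7a11 and Aars held 2 copies each, on opposite strands in Slc7a11. The palindromic cAMP element TGACGTCA was found in 1 of the 27, Ppp1r15a, from 12 bases before the start, and in 1.79% of all windows. Neither motif overlapped the other in these windows. A match describes letters only. Below are the windows of 4 stress genes and of 2 synthetases whose fold changes had opposite signs, each 280 bases from 250 before the start to 30 after it, 5′ to 3′, with TGATGNAA or its reverse complement in capitals.
Trib3, chr2:152344031-152344310, minus strand: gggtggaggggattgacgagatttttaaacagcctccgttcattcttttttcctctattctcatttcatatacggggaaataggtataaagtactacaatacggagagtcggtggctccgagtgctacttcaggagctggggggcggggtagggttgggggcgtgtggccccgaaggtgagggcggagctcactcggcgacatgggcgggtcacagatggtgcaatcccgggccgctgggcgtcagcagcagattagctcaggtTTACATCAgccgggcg
Chac1, chr2:119350992-119351271, plus strand: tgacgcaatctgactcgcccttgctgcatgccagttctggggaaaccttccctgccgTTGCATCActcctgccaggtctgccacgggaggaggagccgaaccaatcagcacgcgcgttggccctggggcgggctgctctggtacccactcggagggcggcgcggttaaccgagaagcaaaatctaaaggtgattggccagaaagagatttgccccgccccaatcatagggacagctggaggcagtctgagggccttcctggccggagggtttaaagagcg
Asns, chr6:7693180-7693459, minus strand: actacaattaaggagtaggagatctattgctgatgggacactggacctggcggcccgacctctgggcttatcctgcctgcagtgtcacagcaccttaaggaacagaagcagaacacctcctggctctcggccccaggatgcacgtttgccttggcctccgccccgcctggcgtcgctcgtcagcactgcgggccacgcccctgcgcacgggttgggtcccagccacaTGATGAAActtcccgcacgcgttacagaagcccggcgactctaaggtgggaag
Slc7a11, chr3:50443584-50443863, minus strand: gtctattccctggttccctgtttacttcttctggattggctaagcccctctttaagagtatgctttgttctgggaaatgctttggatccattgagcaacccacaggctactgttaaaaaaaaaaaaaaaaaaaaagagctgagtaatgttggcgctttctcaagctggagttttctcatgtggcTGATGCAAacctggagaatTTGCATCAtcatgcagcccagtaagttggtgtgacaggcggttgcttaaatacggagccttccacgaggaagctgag
Iars, chr13:49681880-49682159, plus strand: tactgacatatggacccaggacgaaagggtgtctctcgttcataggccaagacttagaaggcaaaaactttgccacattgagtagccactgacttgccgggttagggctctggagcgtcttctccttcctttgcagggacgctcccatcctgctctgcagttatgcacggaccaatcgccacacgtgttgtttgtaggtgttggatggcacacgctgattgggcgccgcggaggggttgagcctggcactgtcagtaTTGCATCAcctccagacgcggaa
Yars, chr4:129189653-129189932, plus strand: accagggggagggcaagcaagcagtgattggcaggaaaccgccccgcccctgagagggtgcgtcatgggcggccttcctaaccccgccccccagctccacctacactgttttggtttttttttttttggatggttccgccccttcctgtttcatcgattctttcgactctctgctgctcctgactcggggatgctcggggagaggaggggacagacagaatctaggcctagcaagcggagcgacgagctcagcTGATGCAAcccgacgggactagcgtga

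Total counts ran from 30623648 to 33577977 in the rPTH libraries and from 22282095 to 24993606 in the controls, so every rPTH library was deeper. The 37 genes took 0.587% to 0.616% of the counts with rPTH and 0.611% to 0.624% in controls. Levels are CPM scaled by TMM factors (trimmed means of log ratios, which align libraries on the bulk of genes). Mast cell markers were abundant in every library: the summed plain CPM of 12 markers was 6624 to 8660 with rPTH and 7751 to 8290 in controls. Control 1 stood apart: its TMM factor was 0.81 against 1.03 to 1.06 in the other 5 libraries. On the TMM scale it was the library with the highest level for 27 of the 36 genes that could be tested. Synthetase levels summed to 4372, 3439 and 3355 in control 1, 2 and 3 on that scale, but to 3538, 3554 and 3481 in plain CPM. Stress and amino acid genes summed to 3341, 2476 and 2529 on the TMM scale. In plain CPM those sums were 2704, 2559 and 2624. As log2 CPM minus the gene's mean over the 6 libraries, the median of control 1 was 0.46 for the stress and amino acid genes. It was 0.28 for the synthetases and 0.11 for all tested genes. How many of all tested genes were highest in control 1 was not counted. Results of the 37 genes that rest on control 1 are given with and without it. Named genes outside the 37 are given with all 6 libraries only. Osteoblast and stromal markers (23 genes) summed to 2489 to 3940 plain CPM with rPTH and 1489 to 1978 in controls. Of the 19 tested, 18 had a log2 fold change above 0, and 12 had all rPTH libraries above all controls, against 8.35% of all tested genes. An unadjusted p under 0.05 on the higher side was reached by 10 of them, against 1.98% of all tested genes, and an edgeR adjusted p under 0.05 by 0. The 5 of smallest p were Thbs2, Lox, Prrx1, Cdh11 and Col1a2. Thbs2, a matrix protein, averaged 341 ± 72.0 CPM with rPTH and 186 ± 4.58 CPM in controls (SD, n = 3 each). The late osteoblast markers were near 0 (Bglap and Ibsp at or under 0.159 CPM with rPTH and 0.216 CPM in controls), whereas Runx2 and Col1a1 were present in all 6 libraries. In a mixed bulk sample, fewer cells of a type and less RNA per cell cannot be told apart. The part of stromal RNA in the results below was not tested.

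With edgeR (quasi-likelihood test, Benjamini-Hochberg adjustment over 16696 tested genes), 0 genes had an adjusted p under 0.05, a background of 0%, and hence 0 of the 36 tested members; the adjusted p of the members ran from 0.619 to 0.952. No member can therefore be said to have changed. Nor can a lack of change be read from this. In simulated counts the test called 5 of 50 genes with a true log2 fold change of -1 and 9 of 50 with 1. An unadjusted p under 0.05 was reached by 7.87% of all tested genes in either direction and by 4 members, all lower with rPTH (Ddit3, Trib3, Atf5 and Sesn2), or 11.1% of the 36, against 5.89% of all tested genes and 1% of tested protein-coding genes on the lower side. The 4 became 0 when any single rPTH library was left out, in fits where 272 to 584 of all genes reached that p. There were 2 members without control 3, both lower, among 1638 of 17250 genes. There were 6 without control 1, 5 lower and 1 higher (Phgdh), among 2165 of 17454 genes, of which 1387 were lower and 778 higher. On the higher side there were 0 members, against 1.98% of all tested genes and 2.63% of protein-coding ones. Log2 fold changes were above 0 for 6 of the 36 members, against 41.5% of all tested genes and 48.5% of protein-coding ones. Without control 1 they were above 0 for 6 of 19 stress and amino acid genes and 9 of 18 synthetases. In that fit 7574 of 17454 tested genes were above 0. In the authors' deposited table the smallest adjusted p among the members was 0.353, for Ddit3. DESeq2 on the deposited counts called 5 genes (Pde8a, Olfr56, Thbs2, Gm11694 and Gm7079, named after their values were seen), none of them a member.

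The transcription factors lay lower in all 3 rPTH libraries than in any control. Atf4, the factor itself, had 239, 240.5 and 217 CPM with rPTH and 431, 244 and 257 CPM in control 1, 2 and 3. Control 1 was far above the rest, and the highest rPTH library lay just under control 2. Means were 232 ± 12.96 CPM with rPTH and 310.4 ± 104 CPM in controls (SD, n = 3 each). The log2 fold change was -0.42 ± 0.26 (SE; edgeR adjusted p = 0.628), and -0.12 without control 1.

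Ddit3, which encodes CHOP, a C/EBP-family factor that promotes death under lasting stress, had 27.7, 27.6 and 30.8 CPM with rPTH and 61.6, 35.9 and 37.9 CPM in controls. All rPTH libraries lay below the lowest control by more than their own spread. Its log2 fold change was -0.65 ± 0.24 (SE; unadjusted p = 0.0293, edgeR adjusted p = 0.619), and -0.37 without control 1. With trends of transcript length and GC content removed it was -0.13 (unadjusted p = 0.395). Atf5, a close relative of ATF4 under similar translational control, had 48.5, 45.4 and 40.4 CPM with rPTH and 90.2, 54.4 and 56.0 CPM in controls. Control 1 was again highest, while rPTH 3 was the lowest library here and the highest rPTH library for Ddit3. Its log2 fold change was -0.58 ± 0.23 (SE; edgeR adjusted p = 0.619), and -0.32 without control 1.

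In GENCODE M21 on GRCm38 (the submitters' processing notes name GRCm38.p5 and mm9; the count table carries no coordinates), Atf4 spans chromosome 15 from 80255184 to 80257541, Atf5 chromosome 7 from 44812256 to 44816658 and Ddit3 chromosome 10 from 127290774 to 127296288. Ddit3 and the methionyl-tRNA synthetase gene Mars lie on opposite strands and their exons overlap by 68 bases. Whether counting used strand is not known from the sources used here, and reads from that overlap cannot then be assigned. Exons of Atf5 overlap those of Il4i1 and Nup62 on the other strand by 164 bases.

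The tested feedback and stress regulators were also on the lower side. Trib3, a pseudokinase that binds and restrains ATF4, had 18.4, 19.6 and 18.4 CPM with rPTH and 32.5, 20.8 and 31.6 CPM in controls. Here controls 1 and 3 were both high and control 2 was close to the rPTH libraries. The log2 fold change was -0.59 ± 0.21 (SE; unadjusted p = 0.0256, edgeR adjusted p = 0.619), and -0.49 without control 1. It was -0.39 without control 3. Without control 2 it was -0.77, with an edgeR adjusted p of 0.12, the smallest that any alternative gave for a member.

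Sesn2 (sestrin 2), a leucine sensor that restrains mTORC1, had 39.0, 42.1 and 41.1 CPM with rPTH and 48.6, 55.9 and 51.3 CPM in controls. It differed from the factors above in that control 1 was the lowest control, so that its log2 fold change was -0.35 ± 0.14 (SE; edgeR adjusted p = 0.619) with control 1 and -0.41 without it. Ppp1r15a, whose product GADD34 leads the phosphatase that reverses eIF2alpha phosphorylation, had 63.0, 64.7 and 71.1 CPM with rPTH and 88.7, 77.9 and 83.4 CPM in controls. Its groups did not overlap, with a log2 fold change of -0.33 ± 0.14 (SE; edgeR adjusted p = 0.619), and -0.29 without control 1. For both genes the groups did overlap in CPM scaled by library totals alone.

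Chac1, an enzyme that degrades glutathione, was scarce, at 4.06, 3.16 and 2.52 CPM with rPTH and 4.56, 3.87 and 4.89 CPM in controls, from 90 to 128 counts with rPTH and 90 to 113 in controls. Its groups overlapped (log2 fold change -0.45 ± 0.27, SE; edgeR adjusted p = 0.628; -0.28 without control 3). Vldlr, a lipoprotein receptor raised by ATF4 in some cells, had 19, 7 and 12 counts with rPTH and 4, 3 and 6 in controls and was too low to be tested. The untested Vldlr ran the other way, with means of 0.38 CPM with rPTH and 0.19 CPM in controls. Of the 5 regulators, 4 were tested and all 4 had a log2 fold change below 0, as did 9766 of 16696 tested genes. For 3 of them all rPTH libraries lay below all controls, against 8.46% of all tested genes and 5.78% of protein-coding ones. In CPM scaled by library totals alone this held for 1 of them, against 5.65% and 3.04%.

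**Figure D1:**
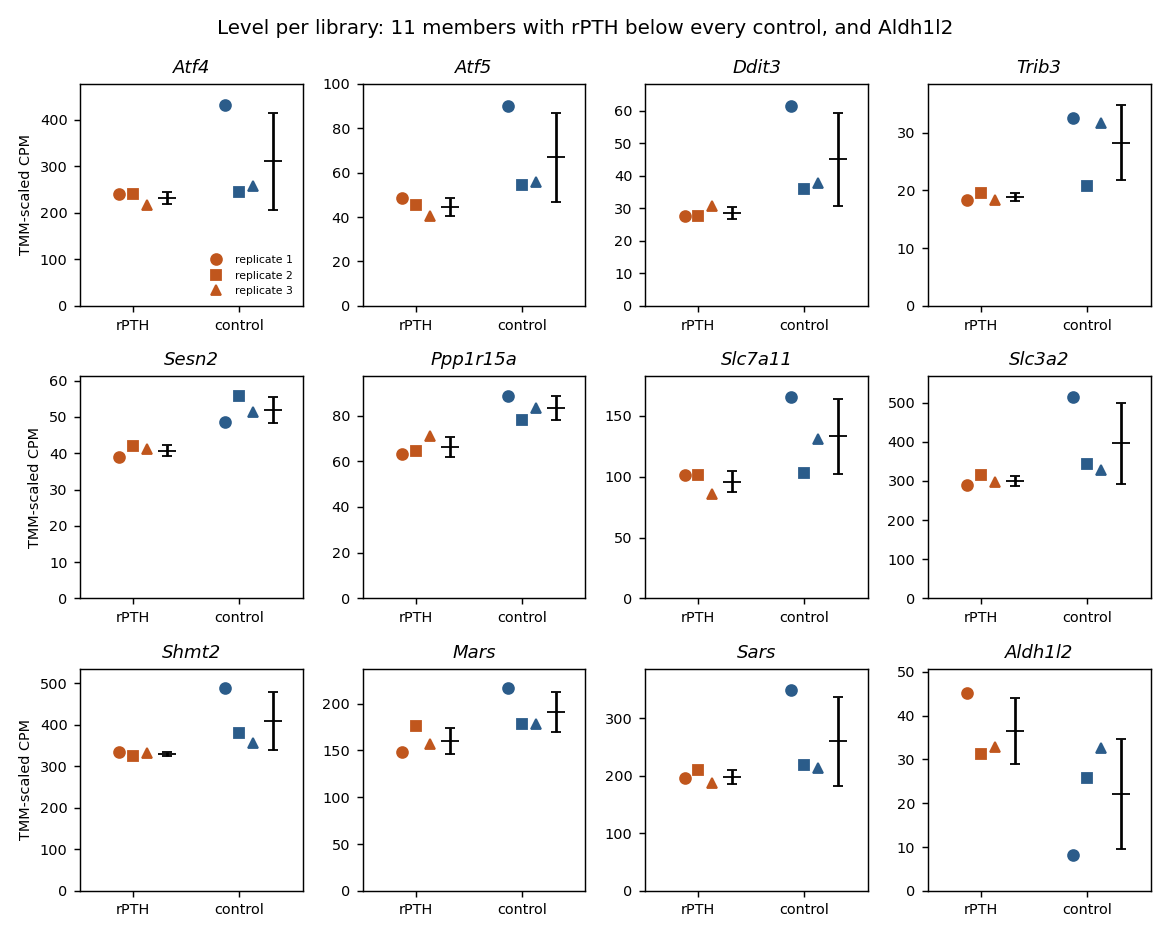
Level in each library (TMM-scaled CPM, axis from 0) of the 11 members with every rPTH library below every control, and of Aldh1l2, which runs the other way; marker shapes are replicate numbers in either group, and bars are mean ± SD of 3 libraries. For Ddit3 the rPTH libraries sit at 27.6 to 30.8 CPM and the controls at 35.9 to 61.6 CPM, with control 1 highest.

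Among amino acid transporters, the cystine importer and its partner were on the lower side. Slc7a11, the light chain of the cystine-glutamate exchanger, had 101, 101 and 85.6 CPM with rPTH and 165, 103 and 131 CPM in controls. The groups just failed to overlap at control 2. The log2 fold change was -0.47 ± 0.21 (SE; edgeR adjusted p = 0.619), and -0.30 without control 1. Slc3a2, the heavy chain that both Slc7a11 and Slc7a5 need to reach the membrane, had 289, 314 and 297 CPM with rPTH and 514, 344 and 329 CPM in controls, with a log2 fold change of -0.40 ± 0.22 (SE; edgeR adjusted p = 0.628). Without control 1 it was -0.17.

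The leucine importer Slc7a5 averaged 496 ± 33.0 CPM with rPTH and 541 ± 34.4 CPM in controls (SD, n = 3 each), the highest CPM of all 37 genes, and its groups overlapped. The arginine transporter Slc7a3 had 9 to 19 counts with rPTH and 5 to 14 in controls, close to the floor, and the sign of its fold change differed between alternatives.

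The enzymes that make serine, glycine and asparagine and feed folate metabolism did not move as a block. Shmt2, the mitochondrial serine hydroxymethyltransferase, had 334, 325 and 331 CPM with rPTH and 487, 381 and 357 CPM in controls. The rPTH libraries were close together (SD 4.38 CPM) and all lay below the controls, with a log2 fold change of -0.31 ± 0.19 (SE; edgeR adjusted p = 0.628), and -0.17 without control 1. Asns, asparagine synthetase, had 108, 110.4 and 95.0 CPM with rPTH and 165, 101 and 113 CPM in controls. Only control 1 was apart: the log2 fold change was -0.27 ± 0.22 (SE; edgeR adjusted p = 0.655), -0.044 without control 1 and -0.42 without control 2. Mthfd2, the mitochondrial folate dehydrogenase, averaged 116 ± 6.60 CPM with rPTH and 133 ± 22.7 CPM in controls, with overlapping groups.

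With control 1 included, the serine pathway itself gave 3 different patterns. Without control 1 the log2 fold changes of Phgdh, Psat1 and Psph were all above 0, at 0.46, 0.19 and 0.055. Psat1, its aminotransferase, had 275, 256 and 225 CPM with rPTH and 263, 213 and 226 CPM in controls. Its groups overlapped on the TMM scale, whereas in plain CPM all rPTH libraries lay above the controls, and its log2 fold change of 0.11 ± 0.17 (SE; edgeR adjusted p = 0.797) was above 0 in all 14 alternatives. Phgdh, the first enzyme of the pathway, had 171, 138 and 113 CPM with rPTH and 254, 105 and 97.3 CPM in controls. Its sign was not settled: the log2 fold change was -0.11 ± 0.40 (SE; edgeR adjusted p = 0.909) with all libraries and lay above 0 in 6 of 14 alternatives. The highest of these was 0.46 without control 1 (unadjusted p = 0.0252, edgeR adjusted p = 0.4). The count of Phgdh is uncertain, since 35.8% of the 75-base stretches of its M21 transcripts also occur in other genes, most often Gm7901, Gm9347 and Gm8341. Gm7901 had 68.9, 52.8 and 43.9 CPM with rPTH and 94.1, 42.6 and 44.2 CPM in controls, and like Phgdh it was highest in control 1. Psph, the phosphatase of the last step, averaged 37.1 ± 3.47 CPM with rPTH and 46.3 ± 18.8 CPM in controls, and the sign of its fold change turned without control 1 (0.055).

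Aldh1l2, a mitochondrial enzyme that oxidises formyl-tetrahydrofolate, had the highest fold change of the tested members. It had 45.1, 31.3 and 32.8 CPM with rPTH and 8.21, 25.8 and 32.5 CPM in controls. Control 1 was far below all other libraries, the reverse of its place for most members, and control 3 lay within the rPTH range. The log2 fold change was 0.71 ± 0.47 (SE; edgeR adjusted p = 0.629), 0.31 without control 1 and 1.14 without control 3. Library rPTH 1, the highest for Aldh1l2, was also the one with the most stromal marker RNA (3940 plain CPM); whether the 2 are linked was not tested. M21 places 1056 bases of its exons opposite those of D10Wsu102e.

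The 18 synthetases were abundant, with group means from 78.1 to 411 CPM with rPTH and from 94.9 to 432 CPM in controls. An unadjusted edgeR p under 0.05 was reached by 0 of 18, against 7.87% of all tested genes in either direction. With 18 genes, 0 is near that share. Log2 fold changes ran from -0.39 to 0.26 with a median of -0.12, beside -0.09 over all tested genes and -0.01 over protein-coding genes. Of the 18, 15 were below 0, and without control 1 the split was 9 below and 9 above with a median of -0.0008. The stress and amino acid genes had a median of -0.32, with 15 of 18 tested genes below 0, against 9766 of all 16696. Without control 1 their median was -0.17, with 13 of 19 below 0. In that fit all tested genes had a median of -0.04, with 9880 of 17454 below 0.

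Seryl-tRNA synthetase, Sars, had 197, 210.2 and 187 CPM with rPTH and 349, 218 and 213 CPM in controls. Its highest rPTH library was just under its lowest control, and the log2 fold change of -0.39 ± 0.23 (SE; edgeR adjusted p = 0.628) was -0.13 without control 1. Tyrosyl-tRNA synthetase, Yars, had 100.2, 108 and 99.6 CPM with rPTH and 172, 112 and 108 CPM in controls, so its groups overlapped narrowly. Its log2 fold change was -0.35 ± 0.22 (SE; edgeR adjusted p = 0.628), and -0.11 without control 1. Methionyl-tRNA synthetase, Mars, had 149, 176 and 157 CPM with rPTH and 216, 178 and 179 CPM in controls; its groups did not overlap on the TMM scale and did overlap in plain CPM. Its log2 fold change was -0.25 ± 0.17 (SE; edgeR adjusted p = 0.629), and -0.16 without control 1.

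Of the 18, 8 are held in the cytosolic multisynthetase complex, and these included the 3 with a fold change above 0 in all 6 libraries together. Iars (isoleucine) had 186, 165 and 167 CPM with rPTH and 99.3, 160.0 and 174 CPM in controls. Eprs, which charges glutamate and proline from 1 chain, had 314, 299 and 309.8 CPM with rPTH and 258, 299.9 and 308 CPM in controls. For both, control 1 was the lowest library, and without it the log2 fold changes of 0.26 and 0.09 became 0.037 and 0.0065. Dars (aspartate) averaged 103 ± 5.28 CPM with rPTH and 95.1 ± 3.36 CPM in controls (SD, n = 3 each; log2 fold change 0.11). The other 5 complex members (Kars, Lars, Mars, Qars and Rars) ran from -0.25 to -0.06, and all 10 synthetases outside the complex were below 0, from -0.39 to -0.03. This division did not hold without control 1. There Kars (0.10), Qars (0.034) and Rars (0.17) in the complex were above 0, as were Gars (0.067), Tars and Vars outside it. In 3 scaffold proteins of the complex, Aimp1, Aimp2 and Eef1e1, and in the phenylalanyl chains Farsa and Farsb, log2 fold changes ran from -0.35 to -0.09.

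**Figure D2:**
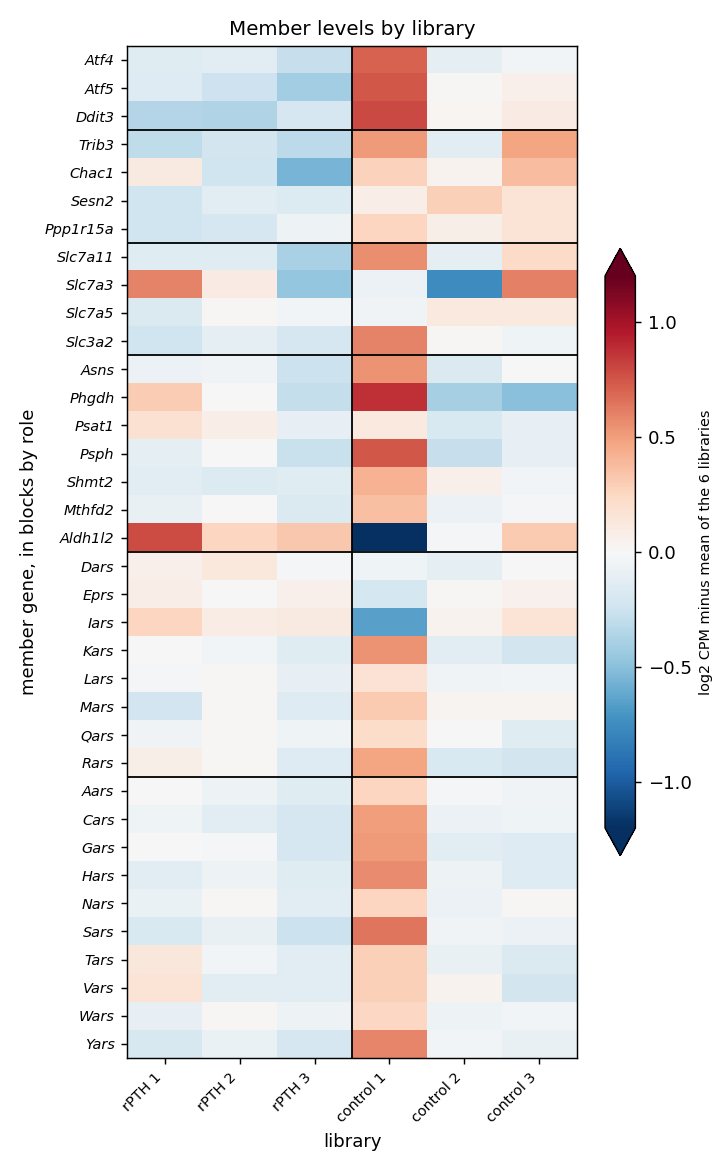
Level of the 36 tested members in each library as log2 CPM minus the gene's mean over the 6 libraries, with rPTH libraries left and controls right and lines between blocks of role. Control 1 is the highest library for 27 of the 36, while Aldh1l2, Iars and Eprs are lowest there.

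Counting separation rather than p, 11 of 36 tested members (30.6%) had all rPTH libraries below all controls, against a background of 8.46% of all tested genes and 5.78% of tested protein-coding genes. They were Atf4, Atf5, Ddit3, Trib3, Sesn2, Ppp1r15a, Slc7a11, Slc3a2, Shmt2, Mars and Sars, that is 9 of 18 stress and amino acid genes and 2 of 18 synthetases. No member had all rPTH libraries above all controls, against 8.35% of tested genes and 10.7% of protein-coding ones. In plain CPM the count below was 8 of 36 (22.2%), against 5.65% of tested and 3.04% of protein-coding genes, and 2 members, Psat1 and Dars, lay above, against 13.5% and 17.4%. With control 1 set aside, an alternative chosen after seeing the data, 12 of 36 lay below both remaining controls, against 14.6% of tested and 11.9% of protein-coding genes, and 2 (Phgdh and Rars) lay above, against 16.6% and 20.9%. Members share libraries and move together, so these shares describe the libraries and carry no test.

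**Figure D3:**
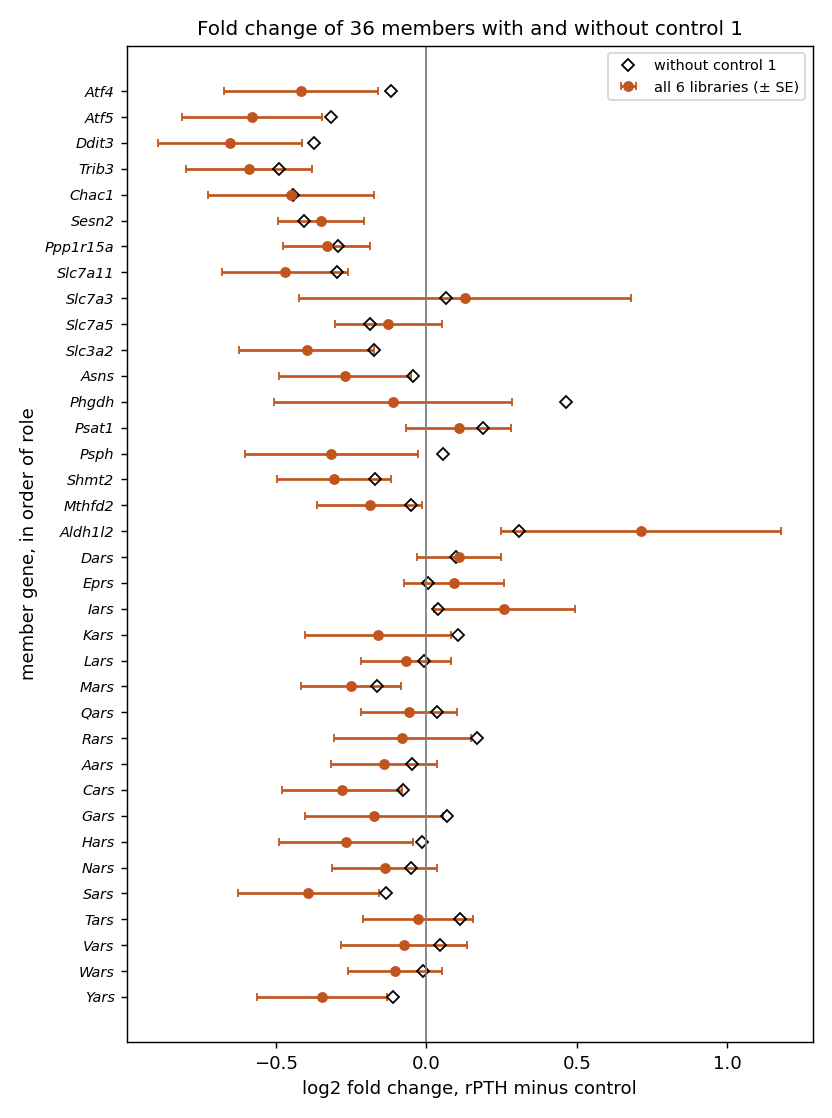
Log2 fold change (rPTH minus control) of the 36 tested members with all 6 libraries, bars showing SE, and without control 1 (open diamonds). Without control 1 most values move toward 0, as for Atf4 (-0.42 and -0.12), whereas Trib3 (-0.59 and -0.49), Chac1, Ppp1r15a and Sesn2 move little.

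The members split by how they followed control 1. On the log2 scale control 1 exceeded the mean of controls 2 and 3 by 1.33 for Phgdh, 0.94 for Psph, 0.78 for Atf4 and 0.74 for Ddit3, but lay below it by -0.75 for Iars and -1.81 for Aldh1l2. This difference went with transcript length. Across the 36 members Pearson's r with log2 length was -0.52 (Spearman's rho -0.56), and across 12291 protein-coding genes it was -0.63 (rho -0.67). All genes share the same 3 libraries, and genes are not independent replicates. Of the 36 tested members Ddit3 is the shortest (890 bases), and Slc7a11 (9223 bases) and Aldh1l2 (6027 bases) are the longest. Long transcripts did not all lie below 0: Slc7a11 (0.51), Aars (5750 bases, 0.29), Vars (4137 bases, 0.37) and Tars (4005 bases, 0.42) were higher in control 1. With trends of length and GC content removed from the fit, log2 fold changes (rPTH minus control) were -0.20 for Atf4, -0.32 for Atf5, -0.24 for Chac1, -0.19 for Slc3a2 and -0.15 for Shmt2. In the same fit Trib3 was at -0.42, Sars at -0.41, Iars at 0.13 and Slc7a11 at -1.22 (unadjusted p = 0.0415, edgeR adjusted p = 0.845). For Slc7a11, the longest tested member, this lay farther from 0 than its -0.47 in the main fit. Whether the length trend holds for a transcript that long was not tested. Within the rPTH group the members were tighter: the median coefficient of variation was 6.11% with rPTH and 23.2% in controls, and it was larger in controls for 32 of 36. The spread in controls includes control 1 and was not computed without it. Nor was the same spread computed over all tested genes, so it cannot be called particular to the members.

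**Figure D4:**
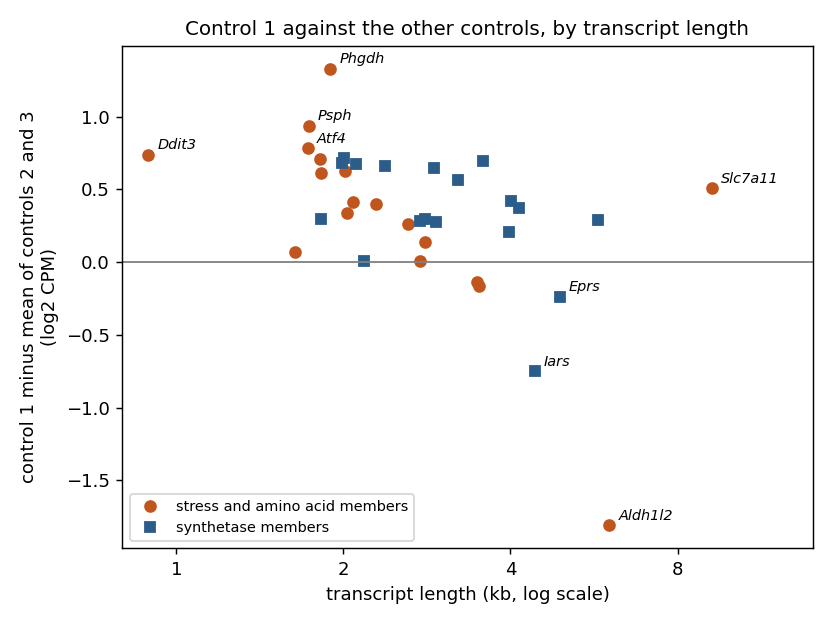
Control 1 minus the mean of controls 2 and 3 (log2 CPM) against transcript length (kb, log axis) for the 36 tested members. Short transcripts such as Ddit3 and Atf4 lie above 0 and Aldh1l2 and Iars lie below it, while other long transcripts such as Slc7a11 and Aars lie above it (Pearson's r = -0.52).

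Per kilobase of transcript, the order of levels was similar in both groups. Slc3a2 led with 165 CPM per kb with rPTH and 217 in controls. Kars (154 and 172), Shmt2 (144 and 178), Slc7a5 (141 and 154) and Atf4 (135 and 180.0) came next with rPTH, and the same 4 filled the next places in controls in another order. At the low end were Trib3 (9.27 with rPTH and 13.97 in controls), Aldh1l2 (6.04 and 3.68), Chac1 (1.98 and 2.71), Slc7a3 (0.153 and 0.140) and Vldlr (0.0478 and 0.0242). Ddit3 was well below Atf4, at 32.2 with rPTH and 50.7 in controls.

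Other genes of the pathway were read from the same fit. Of 11 genes for eIF2alpha, its kinases and partners of ATF4, 7 had a log2 fold change above 0 (median 0.06), against 41.5% of all tested genes. An unadjusted p under 0.05 was reached by 0 of them, against 7.87% of all tested genes. The kinases of unfolded protein (Eif2ak3) and amino acid shortage (Eif2ak4) had overlapping groups. Eif2ak3 had 25.0 to 26.4 CPM with rPTH and 21.8 to 29.2 CPM in controls, and Eif2ak4 had 56.3 to 62.0 CPM with rPTH and 37.8 to 58.7 CPM in controls. The kinase that senses viral RNA, Eif2ak2, had 111, 92.3 and 107 CPM with rPTH and 40.7, 77.0 and 84.6 CPM in controls. Its groups did not overlap, with control 1 lowest (log2 fold change 0.61 ± 0.28, SE; edgeR adjusted p = 0.619). Its fold change without control 1 was not read. Eif2ak2 was the only 1 of the 11 with all rPTH libraries above all controls, against 8.35% of all tested genes and 10.7% of protein-coding ones. Of 32 further ATF4 and amino acid response genes 30 were tested, with 15 above and 15 below 0 (median -0.02). Only 1 of these 30 reached an unadjusted p under 0.05, against 7.87% of all tested genes. It was Ddit4, an inhibitor of mTORC1, with 22.2, 25.2 and 23.9 CPM with rPTH and 32.6, 31.3 and 29.8 CPM in controls (log2 fold change -0.39 ± 0.15, SE; edgeR adjusted p = 0.619). In that list 8 of 30 genes had rPTH below all controls, against 8.46% of all tested and 5.78% of protein-coding genes, and 0 had it above, against 8.35% and 10.7%. In plain CPM 3 of the 30 lay below, against 5.65% of all tested and 3.04% of protein-coding genes. On that scale 2 lay above, against 13.5% and 17.4%. The 12 endoplasmic reticulum chaperone genes had 5 above and 7 below 0 (median -0.03), with all groups overlapping on the TMM scale. In plain CPM 3 of the 12 had all rPTH libraries above all controls, against 13.5% of all tested genes and 17.4% of protein-coding ones. The 17 mitochondrial synthetases had 5 above and 12 below 0 (median -0.16). In both lists 0 genes had an unadjusted p under 0.05, against 7.87% of all tested genes. The BiP gene Hspa5, the main marker of unfolded protein, had 893, 865 and 770.0 CPM with rPTH and 1170, 740.1 and 684 CPM in controls.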

How the data were processed

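RNA of MC/9 mast cells was extracted with Trizol and made into libraries with an Illumina TruSeq RNA kit, per the labels' protocols. The submitters' processing notes name Trimmomatic 0.36, STAR 2.5.2b, Subread 1.5.0p3 with featureCounts, DESeq2 1.12.4 and R 3.3.0, and the builds GRCm38.p5 and mm9, with no roles; neither annotation nor strand setting is known from these sources. The authors deposited raw counts per gene as whole numbers. The authors' deposited comparison of both groups holds the mean signal (counts over size factors), log2 fold change and error, Wald score, p-value and adjusted p; values quoted from it are theirs. Deposited normalized and regularised log2 tables were not used.

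Counts were tested here with edgeR 4.0.16 (quasi-likelihood, robust; TMM; filterByExpr, minimum count 10) in R 4.3.3 on all genes, and the members' rows were read from that fit. SE is the fold change divided by the root of the F statistic. Alternatives used DESeq2 1.42.0, limma 3.58.1, other filters, scalings and subsets. The test was checked on simulated counts, with 50 genes at each true log2 fold change other than 0. It called 42 of 50 at -2, 5 of 50 at -1, 9 of 50 at 1 and 50 of 50 at 2. Of 16307 unchanged genes it called 3. True changes smaller than 1 were not simulated. Lengths are of the APPRIS principal transcript in GENCODE M21 (47225 of 49568 symbols matched). Floors (3 counts) are 0.0893 to 0.098 CPM with rPTH and 0.12 to 0.135 CPM in controls and cover counting error only.

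The members and the further lists (regulators of eIF2alpha, further ATF4 genes, other and mitochondrial synthetases, chaperones, and markers of mast, stromal, macrophage and adipocyte cells) were chosen with earlier results of these data known. Values per library are given for Atf4, Ddit3, Trib3, Atf5, Chac1, Asns, Sesn2, Slc7a11, Psat1, for members with an unadjusted p under 0.05 or groups that did not overlap, and for the 3 synthetases of smallest p; those of Aldh1l2, Phgdh, Iars, Eprs, Eif2ak2, Eif2ak3, Eif2ak4, Hspa5, Gm7901, Bglap, Ibsp, Runx2 and Col1a1 were chosen after their values were seen. In the lists, genes at an unadjusted p under 0.05 are named, at most 5 a list by smallest p. Macrophage markers summed to 4.65 to 5.55 plain CPM with rPTH and 3.81 to 5.64 in controls, and adipocyte markers to 59.0 to 95.4 with rPTH and 41.1 to 64.4 in controls. Nars2 is in both the further ATF4 list and the mitochondrial list.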

Additional observations from a re-analysis of the deposited data

How the results depend on the processing

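No member was called under any alternative, and DESeq2 was the only alternative to call genes (5 of 16696); with the others, including limma-voom and every fit without 1 library, 0 genes were called. Genes at an unadjusted p under 0.05 numbered 1314 (331 higher, 983 lower), against 2377 with no low-count filter, 790 with limma-voom, 621 among protein-coding genes alone (415 higher, 206 lower), 801 with length and GC trends removed (390 higher, 411 lower), and 272 (without rPTH 1) to 2165 (without control 1) without single libraries. The members among them numbered 4, against 1 without the filter (Ddit3), 2 with the trends removed (Slc7a11 and Atf5), and 0 to 6 without single libraries. That count was 0 without rPTH 1, 2 or 3, 2 without control 3 and 6 without control 1. With the replicate number as a block the counts were 525 genes and 1 member (Atf5). Same-numbered libraries did not deviate together (correlations over genes of -0.131, -0.323 and 0.142), and the labels do not say that a number marks a shared culture.

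Medians of the stress and amino acid genes kept their sign in all 14 alternatives (-0.38 to -0.17). Those of the synthetases ran from -0.19 to 0.015 and were above 0 only without the filter. Signs turned for 13 members. Without single libraries the range was -0.22 to 0.73 for Slc7a3 (turned without rPTH 1 and control 2), -0.33 to 0.46 for Phgdh (turned without rPTH 3 and control 1), -0.51 to 0.055 for Psph (turned without control 1) and -0.27 to 0.10 for Kars (turned without control 1). It was -0.081 to 0.034 for Qars (turned without control 1), -0.19 to 0.17 for Rars (turned without control 1), -0.29 to 0.067 for Gars (turned without control 1), -0.10 to 0.11 for Tars (turned without rPTH 3 and control 1) and -0.18 to 0.046 for Vars (turned without control 1). Without the filter the turned values were 0.065 for Phgdh, 0.064 for Lars, 0.077 for Qars, 0.071 for Rars, 0.11 for Tars, 0.060 for Vars and 0.032 for Wars. With trends removed the turned values were 0.16 for Phgdh, -0.014 for Dars, -0.13 for Eprs and 0.044 for Wars. Phgdh was at 0.012 with limma-voom and 0.016 with the replicate block. With DESeq2 size factors in edgeR, and with the DESeq2 Wald test, Qars was at 0.0050 and Tars at 0.038. The cause was not tested. Depth limits Vldlr, Slc7a3 and Chac1, with 3 to 128 counts per library.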
